A study of Mus musculus with 4 samples.

Results

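The genes described here are 10 of the Hsp70 and Hsp90 chaperone system with its heat shock factors: the germ cell members Hspa2, Hspa1l and Hspa4l, and the general members Hspa1a, Hspa1b, Hspa5, Hspa8, Hsp90aa1, Hsf1 and Hsf2. Members were every probe set (a group of short array oligonucleotides read together) whose platform annotation names 1 of these genes and no other. That gave 25 of the 45037 mouse probe sets, for 9 of the 10 genes. They comprised 7 probe sets for the germ cell members and 18 for the general ones. Hsf1 had none and is not analysed here. The RNA came from whole testes of 8-week-old C57BL/6J mice, taken from 2 wild type and 2 Taf7l knockout samples and hybridised to 1 Affymetrix array each. Wild type animals were littermates according to the series design. The labels call the second genotype both knockout and mutant without naming the allele. Taf7l is an X-linked gene for a germ cell relative of a subunit of the general transcription factor TFIID.

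Hsp70 proteins bind exposed hydrophobic stretches of unfolded clients and release them in a cycle of ATP binding and hydrolysis. J proteins (Hsp40) start the cycle by stimulating hydrolysis, and nucleotide exchange factors, including the Hsp110 proteins, end it by releasing ADP. Hsp90 takes over many partly folded clients, such as kinases and steroid receptors, with its own co-chaperones. Heat shock factors are transcription factors that bind inverted repeats of the letters GAA upstream of the inducible chaperone genes. The testis also has its own chaperones: Hspa2 is made from meiotic prophase onward and is needed for male meiosis, Hspa1l is made in spermatids, and Hspa4l is an Hsp110 protein abundant in the male germ line.

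The arrays had a similar median mouse probe set signal, 45.2 to 45.7. That level is close to the lowest mean signal kept for testing, 45.8, so it does not describe the brighter probe sets. Among those kept, 60.0% were lower in the knockout, with a median log2 difference of −0.05. Taf7l itself was at 829 and 818 in wild type and 80.6 and 72.5 in the knockout. Of the germ cell markers, 18 of 18 for pachytene spermatocytes and 17 of 17 for spermatids had a probe set bright enough to be kept. Over the whole series 12241 of 18193 named genes were kept, so these counts alone do not establish the tissue. The 17 spermatid markers had a summed signal of 489290 to 540660 on the 4 arrays. Wild type replicate 2 stood apart in adipocyte markers, with a summed signal of 4114 against 941 to 1748 on the other 3 arrays. Among epididymis markers Lcn2 was at 15416 on knockout replicate 2 against 8088 to 9564 on the others, while Cuzd1 (436 against 117 to 192) and Spink8 (150 against 10.1 to 17.3) were highest on wild type replicate 2. Wild type replicate 2 and knockout replicate 2 held exactly the same value at 5.30% of mouse probe sets and 1.39% of the kept ones, against 0.506% to 1.38% and 0.209% to 0.520% for the other pairs of arrays. No member probe set was among these. The cause was not tested. The labels call the replicates biological, but the description of knockout replicate 2 repeats the number of the first, so whether both came from separate mice is unclear. All p-values below then reflect only how far these 4 arrays scattered, and that scatter may be technical.

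Hspa2 gave linear signals of 18156 and 17711 in wild type and of 13748 and 14418 in the knockout. Both knockout values lay below both wild type values, and the groups were much further apart than their own members. The mean was 17934 ± 315 in wild type and 14083 ± 474 in the knockout (SD, n = 2 each), a log2 difference of −0.35 (SE 0.051, 95% interval −0.48 to −0.22), which is 21.5% less. By limma with Benjamini-Hochberg adjustment over 22519 probe sets the adjusted p = 0.051, so Hspa2 did not pass the threshold of 0.05. It passed when each array was centred on its median (limma adjusted p = 0.0447, with 2.87% of all probe sets called), when 1 probe set was kept per gene (0.0334, with 6.58% called) and when only probe sets above the 75th percentile of mean signal were tested (0.00868, with 21.1% called). It did not pass after quantile normalization (−0.27, limma adjusted p = 0.0568), with no filter (0.16), without the variance trend (0.101) or with 1 array left out (0.0851 to 0.353). With any 1 array left out the difference was between −0.38 and −0.31. In bulk tissue, fewer cells of a type and less RNA per cell cannot be told apart, here and for every germ cell gene below.

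Hspa1l, the Hsp70 of spermatids, was at 9836 and 10446 in wild type and at 8092 and 8278 in the knockout. The groups did not overlap. The means were 10141 ± 431 and 8185 ± 132 (SD, n = 2 each), a log2 difference of −0.31 (SE 0.056, 95% interval −0.45 to −0.17, limma adjusted p = 0.0614), or 19.3% less. The limma adjusted p was 0.0445 with 1 probe set per gene and 0.0156 above the 75th percentile, but 0.131 after quantile normalization, where the difference was −0.20. With 1 array left out it ranged from −0.35 to −0.27. Hspa2 and Hspa1l differed by nearly the same amount: the ratio of Hspa2 to Hspa1l within an array differed between genotypes by −0.04 on the log2 scale, within the scatter of the wild type pair (0.06 and −0.06 around their mean).

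Upstream sequences are shown for these 2 genes, which were the lowest members of the germ cell class, for Hspa1a, which lies next to Hspa1l on chromosome 17 and points away from it, and for Hspa5 as the member with a stress element of another kind. They are the 250 bases before the RefSeq start on GRCm38.p6, read 5′ to 3′ along the gene's strand: chr12:76404120-76404369 (+), chr17:34972453-34972702 (+), chr17:34972157-34972406 (−) and chr2:34771840-34772089 (+). Capitals mark CCAAT on either strand, the 2-unit heat shock element and the endoplasmic reticulum stress element.
Hspa2: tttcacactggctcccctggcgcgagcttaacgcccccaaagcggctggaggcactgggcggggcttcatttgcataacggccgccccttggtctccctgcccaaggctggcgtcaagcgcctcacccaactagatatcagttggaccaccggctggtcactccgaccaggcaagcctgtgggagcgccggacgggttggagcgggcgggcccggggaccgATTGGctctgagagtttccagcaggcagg
Hspa1l: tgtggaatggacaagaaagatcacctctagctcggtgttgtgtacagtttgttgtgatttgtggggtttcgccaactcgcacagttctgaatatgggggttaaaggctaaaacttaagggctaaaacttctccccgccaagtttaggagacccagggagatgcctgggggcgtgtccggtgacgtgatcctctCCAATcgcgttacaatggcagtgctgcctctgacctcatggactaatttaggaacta
Hspa1a: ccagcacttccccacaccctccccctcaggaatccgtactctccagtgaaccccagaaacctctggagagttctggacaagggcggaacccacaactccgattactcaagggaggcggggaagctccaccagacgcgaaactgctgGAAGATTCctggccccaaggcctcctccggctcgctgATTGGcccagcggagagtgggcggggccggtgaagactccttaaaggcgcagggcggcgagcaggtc
Hspa5: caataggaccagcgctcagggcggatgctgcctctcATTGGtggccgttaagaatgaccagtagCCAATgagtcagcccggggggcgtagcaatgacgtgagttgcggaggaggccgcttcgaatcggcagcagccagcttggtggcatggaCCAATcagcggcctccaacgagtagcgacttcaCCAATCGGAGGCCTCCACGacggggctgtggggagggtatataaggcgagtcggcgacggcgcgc
Motifs were searched on both strands in windows from 250 bases before to 50 after the start, which RefSeq tables gave for 7 of the 10 genes. The 2-unit heat shock element, GAANNTTC or TTCNNGAA, was found in 2 of these 7 windows, Hspa1a and Hspa1b, at −104 to −97 in both, and in 15.1% of all 32851 windows. The 3-unit element, in which a further GAA or TTC follows in alternating order, was in 0 of 7 and in 0.603% of all. CCAAT was in 6 of 7 windows, Hspa4l being the exception, and in 37.4% of all. The full cAMP response element TGACGTCA was in 0 of 7 and 1.79% of all, and the shorter TGACG, which it contains, in 4 of 7 (Hspa2, Hspa1l, Hspa4l and Hspa5) and 20.8%. The stress element of Hspa5 begins with one of its CCAAT boxes, at −65, and such an element was in 0.119% of windows. These matches describe letters only.

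Hspa4l gave readings that disagreed. Its brightest probe set was at 35262 and 33607 in wild type and 33689 and 34262 in the knockout, overlapping between genotypes. The log2 difference there was −0.02 (95% interval −0.14 to 0.10, limma adjusted p = 0.844), and it became 0.0031 after quantile normalization and 0.0157 without wild type replicate 1. At another probe set the values were 984 and 972 in wild type and 733 and 872 in the knockout, which do not overlap. That difference was −0.29 (SE 0.104, 95% interval −0.55 to −0.03, limma adjusted p = 0.172), and the knockout mean of 803 had an SD of 97.9. The remaining 3, at means of 3974, 406 and 312 in wild type, differed by −0.15, −0.08 and −0.19, without overlap between genotypes and with limma adjusted p between 0.313 and 0.62. After quantile normalization these became −0.02, −0.02 and −0.15, and with 1 array left out they ranged from −0.24 to −0.06, from −0.11 to −0.04 and from −0.27 to −0.10. The −0.29 reading became −0.19 and ranged from −0.42 to −0.17. Within an array, the ratio of the first of these dimmer readings to the brightest one stood at −0.38 and −0.16 in the knockout, on the log2 scale with the wild type mean at 0. The place of each probe set in the transcript was not analysed here.

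Within single arrays Hspa2 and Hspa1l were set against the brightest Hspa4l reading, which is only 1 of its 5 and the one nearest to 0. Relative to it, Hspa2 stood at −0.35 and −0.31 on the 2 knockout arrays, on the log2 scale with the wild type mean at 0, while the wild type arrays lay at −0.02 and 0.02. Hspa1l stood at −0.29 and −0.29 in the same comparison, against −0.08 and 0.08. A factor that multiplies a whole array cancels in these ratios, but a rescaling that depends on signal level does not. After quantile normalization the differences were −0.27 for Hspa2, −0.20 for Hspa1l and 0.0031 for this Hspa4l reading. Both ratios then shifted by less. Against the Hspa4l reading that differed by −0.29, Hspa2 (−0.35) and Hspa1l (−0.31) lay close. An exact permutation test of 2 arrays against 2 cannot go below p = 0.333, so no p is given for them.

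**Figure D1:**
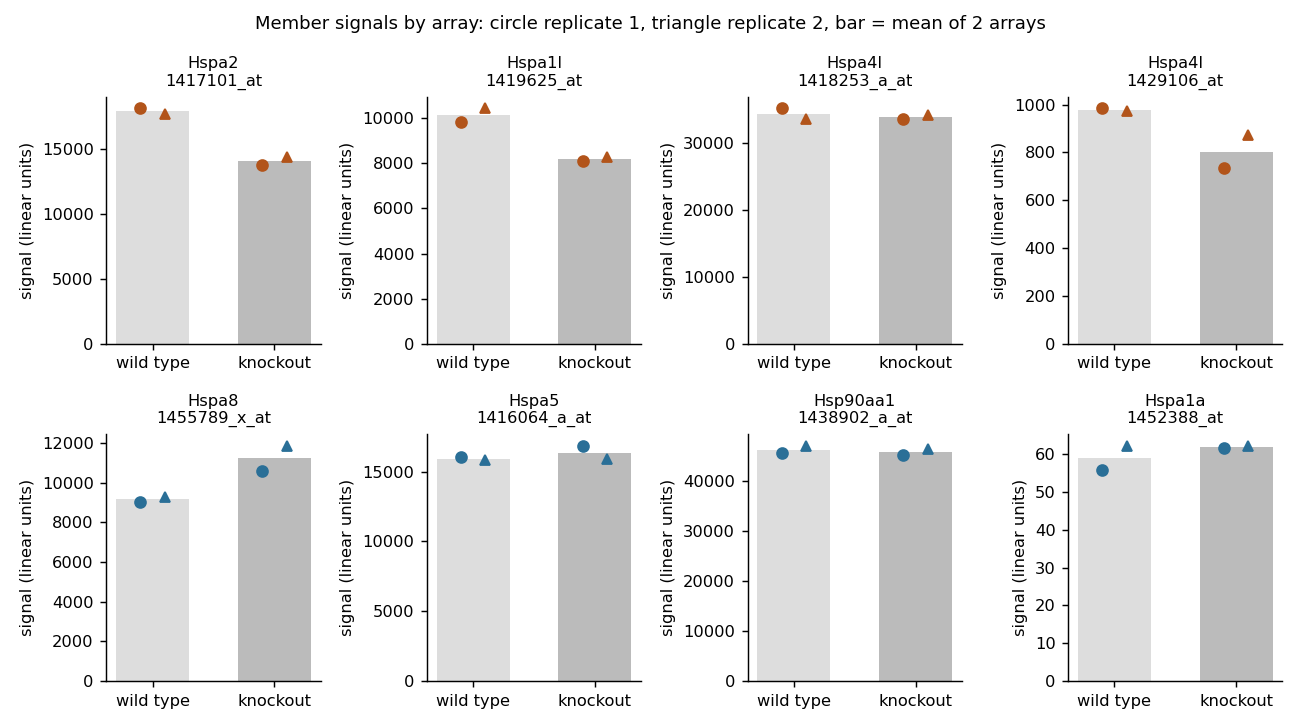
Linear signal of 8 member probe sets on each array (circle, replicate 1; triangle, replicate 2) with bars at the mean of 2 arrays, germ cell members in orange and general members in blue. Hspa2 and Hspa1l lie lower on both knockout arrays, Hspa8 lies higher on both, and the brightest Hspa4l, Hspa5 and Hsp90aa1 readings and Hspa1a overlap between genotypes.

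Hspa8, the constitutive Hsp70 of all cells (Hsc70), read higher in the knockout at 3 of its 4 probe sets. Its brightest probe set was at 9024 and 9284 in wild type and at 10572 and 11857 in the knockout, with no overlap. The means were 9154 ± 184 and 11215 ± 908 (SD, n = 2 each), a log2 difference of 0.29 (SE 0.071, 95% interval 0.11 to 0.47, limma adjusted p = 0.0891), or 22.3% more. It passed above the 75th percentile (limma adjusted p = 0.0265), and was 0.21 without knockout replicate 2 and 0.39 after quantile normalization. A second probe set was at 6309 and 6757 against 7114 and 7774, a difference of 0.19 (adjusted p = 0.188). The next was at 4341 and 5089 against 4950 and 5565, a difference of 0.16 with overlapping groups (adjusted p = 0.405). The last, dim at 93.4 and 96.8 against 92.1 and 85.0, differed by −0.10. None of the 4 passed the test. The names of the brightest 2 carry the suffix for probes that can also match unrelated transcripts, and Hspa8 has many processed copies in the genome, so their readings are not those of 1 locus with certainty.

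Hspa2 and Hspa1l read lower and the brightest Hspa8 reading higher, so their ratios within an array had to shift by more than either alone. That reading had the largest rise among the Hspa8 probe sets. The others differed by 0.19, 0.16 and −0.10, so ratios to them shift by less. The ratio of Hspa2 to the brightest Hspa8 reading stood at −0.59 and −0.69 in the 2 knockout samples, against 0.04 and −0.04 in wild type, on the log2 scale with the wild type mean at 0, a mean shift of −0.64. For Hspa1l over Hspa8 the knockout arrays were at −0.53 and −0.67, a mean shift of −0.60. Both pairs were picked after their values were seen, so these shifts are a description.

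Hspa5, the Hsp70 of the endoplasmic reticulum (BiP), which rises when unfolded protein builds up there, did not separate the genotypes at its brightest probe set. The values were 16034 and 15837 in wild type and 16866 and 15890 in the knockout, a log2 difference of 0.04 (95% interval −0.09 to 0.17, limma adjusted p = 0.701). The second was at 12709 and 13262 against 12556 and 12166, a difference of −0.07 (adjusted p = 0.461), which became 0.0133 after quantile normalization. The dimmest was at 783 and 783 against 685 and 719, a difference of −0.16 (95% interval −0.35 to 0.03, adjusted p = 0.267). Relative to Hspa5 at its brightest probe set, Hspa2 stood at −0.47 and −0.31 on the 2 knockout arrays, on the log2 scale with the wild type mean at 0.

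Hsp90aa1, the inducible cytosolic Hsp90 that is also strongly expressed in male germ cells, was close to equal in both genotypes at its brightest reading. There it was at 45438 and 46947 in wild type and 45009 and 46205 in the knockout, a log2 difference of −0.02 (95% interval −0.13 to 0.09, limma adjusted p = 0.838). At 43635 and 39118 against 39352 and 41516, a second reading differed by −0.03 with overlap between groups. Another, at 39687 and 38324 against 34678 and 37519, differed by −0.11 without overlap (95% interval −0.25 to 0.03, adjusted p = 0.286). A dim one differed by −0.14 (adjusted p = 0.431). The difference at the brightest reading became 0.0197 after quantile normalization.

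The stress-inducible pair Hspa1a and Hspa1b gave signals near the bottom of the kept range in both genotypes. The Hspa1a probe set was at 55.8 and 62.2 in wild type and 61.6 and 62.3 in the knockout, a log2 difference of 0.07 (95% interval −0.19 to 0.34, limma adjusted p = 0.717). The brighter kept Hspa1b probe set was at 97.1 and 87.7 against 95.5 and 85.2, a difference of −0.03 (95% interval −0.32 to 0.26), and the dimmer was at 48.6 and 51.7 against 42.2 and 59.3. The groups overlapped at all 3. The Hspa1a and Hspa1b windows upstream differ at 4 of 300 bases (98.7% identical). The pair is known to be near-identical in coding sequence, so the signals of the 2 genes may not be separable. The probe sequences were not examined. Hspa1a and Hspa1l are neighbours on opposite strands, with 46 bases between their windows. Between genotypes the Hspa1l reading differed by −0.31 and the Hspa1a reading by 0.07, the latter on signals near the filter.

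Of the members Hsf1 and Hsf2 only Hsf2, which is known for its part in spermatogenesis, had probe sets. Both lay under the lowest mean kept, 45.8. They read 46.3 and 32.7 in wild type against 33.1 and 30.3 in the knockout, and 7.23 and 6.23 against 6.08 and 6.35, with overlap at both. Signals this low are mostly background, and no difference was tested. The other member probe sets under that level were 1 of Hspa1b (33.5 and 26.8 against 34.3 and 31.8) and 1 of Hsp90aa1 (16.4 and 15.9 against 16.2 and 16.1). The dimmest member kept was Hspa1b at a mean of 50.5 over the 4 arrays, and the brightest left out was Hsf2 at 35.6.

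Counting all members, 21 of the 25 probe sets were kept, for 8 genes, and limma called 0 of the 21 at an adjusted p under 0.05. Over all kept probe sets the share called was 1.39%, made up of 0.941% lower and 0.444% higher in the knockout. At an unadjusted p under 0.05 there were 5 of 21, against 24.7% of all: Hspa2, Hspa1l, 1 of Hspa4l and 2 of Hspa8. The genotypes did not overlap at 13 of the 21, against 55.0% of all kept probe sets, which is a similar share. Without overlap and lower in the knockout were 11 of the 21 (36.3% of all kept probe sets), and without overlap and higher 2 of the 21 (18.7%). Among non-overlapping probe sets alone, 11 of 13 were lower, against 66.0% of all such probe sets.

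The classes leaned differently. All 7 kept germ cell probe sets were lower in the knockout, with a median log2 difference of −0.19, although 5 of the 7 are for Hspa4l and the brightest of those changed sign after quantile normalization. Of the 14 kept general probe sets 9 were lower and 5 higher, with a median of −0.025. Over all kept probe sets 60.0% were lower and the median was −0.05. At the brightest probe set of each gene, the 3 germ cell members had a median of −0.31 and the 5 general members 0.04, against −0.05 over 12241 genes. Without overlap and lower were 6 of 7 germ cell and 5 of 14 general probe sets, against 36.3% of all. The classes were given, but members were chosen with earlier results of these data known. The values are therefore described, with no test between the classes.

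On each array separately, the median deviation of the germ cell probe sets from their own 4-array means was 0.11 and 0.14 in wild type and −0.105 and −0.042 in the knockout. Of these 7 probe sets 5 are for Hspa4l, so the germ cell medians and the gap below rest mostly on repeated readings of 1 gene. For the general probe sets it was −0.003 and 0.03 in wild type and −0.01 and 0.01 in the knockout. The gap between the class medians was 0.11 and 0.10 in wild type and −0.10 and −0.05 in the knockout, with no overlap. Since each deviation is taken from the probe set's own 4-array mean, these gaps restate the differences given above. The difference between the class medians of the log2 differences was −0.16, which is another measure than the shift of these gaps. One scaling factor per array cannot move it. It was −0.15 after quantile normalization and lay between −0.25 and −0.14 with 1 array left out.

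**Figure D2:**
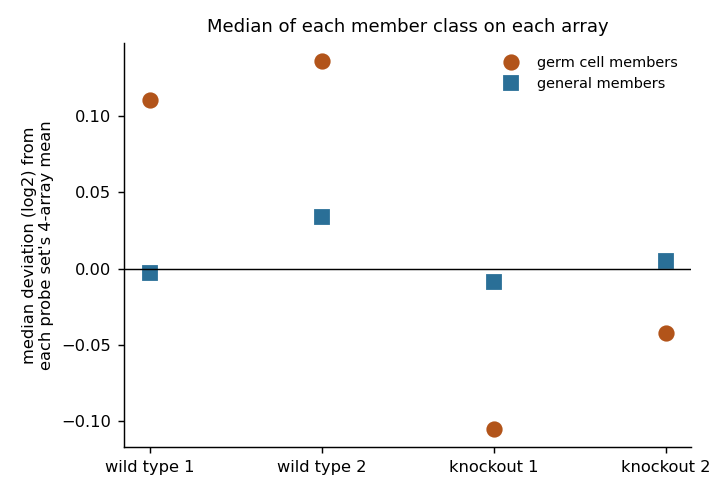
Median, over the kept probe sets of each class, of the log2 deviation from a probe set's mean over the 4 arrays (vertical axis), for each array (horizontal axis). The germ cell median (circles) lies above 0 on both wild type arrays and below 0 on both knockout arrays. It is taken over 7 probe sets, 5 of them for Hspa4l. The general median (squares) stays between −0.01 and 0.03.

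**Figure D3:**
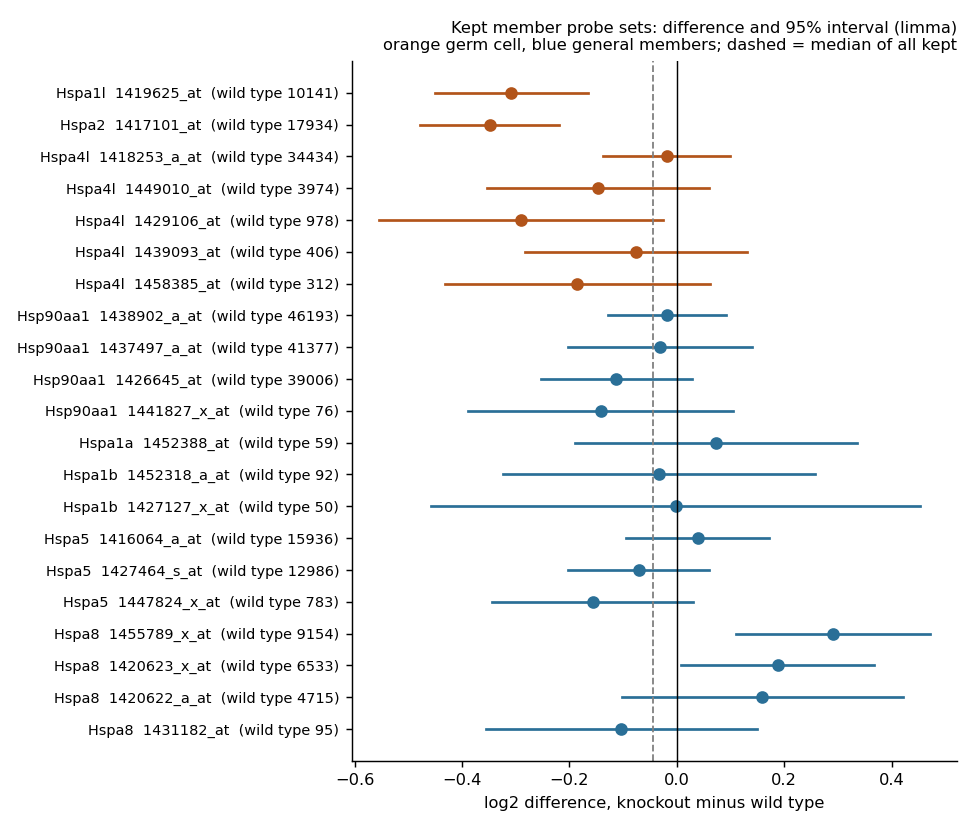
Log2 difference, knockout minus wild type, of each of the 21 kept member probe sets with its 95% limma interval, labelled with the wild type mean signal; the dashed line is the median of all kept probe sets, −0.05. The unadjusted intervals of Hspa2, Hspa1l, 1 Hspa4l and 2 Hspa8 probe sets exclude 0, and the widest intervals are those of the 2 dim Hspa1b readings.

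The wider chaperone network was counted in lists, each gene at its brightest kept probe set. By that reading 60.7% of all 12241 genes were lower in the knockout, and the test called 1.74% of all genes. In the other Hsp70 and Hsp110 genes, 6 of 7 were lower (median −0.14, against −0.05 over all genes) and 0 passed the test. That median was −0.08 after quantile normalization and between −0.22 (knockout replicate 2 left out) and −0.06 (knockout replicate 1 left out). The Hsp110-like endoplasmic reticulum chaperone Hyou1 was at 1273 and 1226 in wild type and 947 and 1038 in the knockout (log2 −0.33, limma adjusted p = 0.0857), though its dimmer probe sets differed by 0.02 and 0.23. Hspa4, the ubiquitous Hsp110 relative of Hspa4l, was at 14420 and 14187 against 12304 and 12786 (−0.19, adjusted p = 0.0986). Of the other Hsp90 genes, the mitochondrial Trap1 was at 1279 and 1372 against 1684 and 1453 (0.24, adjusted p = 0.212) and Hsp90b1 of the endoplasmic reticulum differed by 0.07 (adjusted p = 0.592), which became −0.02 without knockout replicate 2 and was −0.08 at its dimmer probe set.

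Among 37 J proteins, 29 were lower and 8 higher (median −0.09), against 60.7% lower over all genes, and 0 passed. After quantile normalization 19 of the 37 were lower (median −0.02), so the lean depends on the scaling. Dnajb2 was at 4468 and 4740 in wild type and at 2979 and 3409 in the knockout (−0.53, SE 0.085, adjusted p = 0.0538). Dnaja4 was at 6334 and 6375 against 4925 and 5275 (−0.32, adjusted p = 0.0639). Dnajb1 differed by −0.18 at its brightest probe set (limma adjusted p = 0.127) and by −0.40 at a dimmer one (0.051). Of the 13 nucleotide exchange factors and other Hsp70 regulators, 12 were lower (median −0.13), and 0 passed. After quantile normalization 10 were lower (median −0.04). Sil1, the exchange factor of Hspa5, was at 2797 and 2862 against 2412 and 2353 (−0.25, adjusted p = 0.0867), and Bag3 at 996 and 1099 against 774 and 843 (−0.37, adjusted p = 0.087).

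Hsp90 co-chaperones were split, with 5 of 14 lower and 9 higher (median 0.04, and −0.02 without knockout replicate 2 and −0.01 without wild type replicate 1, but 0.13 after quantile normalization) and 0 called. Fkbp4, an immunophilin of steroid receptor complexes, was at 9329 and 9719 against 7450 and 8431 (−0.26, adjusted p = 0.116). Ahsa2, a relative of the Hsp90 ATPase activator Ahsa1, was at 200 and 172 against 238 and 233 (0.34, adjusted p = 0.14).

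Only 2 genes of these lists passed the test, and neither is a classical chaperone. Hsbp1l1, a relative of the heat shock factor binding protein Hsbp1, was at 3262 and 3324 in wild type and 2069 and 2104 in the knockout. It fell 1.58-fold (log2 −0.66, SE 0.059) at an adjusted p of 0.0403 by limma. Hsbp1 itself was at 25128 and 24769 against 21234 and 21566 (−0.22, adjusted p = 0.0673), with −0.09 at a dimmer probe set. In that list of heat shock factors and binding proteins 4 of 5 were lower (median −0.22, and −0.11 after quantile normalization). Hspb11 was at 2241 and 2292 in wild type and 3195 and 3399 in the knockout, and rose 1.45-fold (log2 0.54, SE 0.064, adjusted p = 0.0471). Despite its name it encodes the intraflagellar transport subunit IFT25. Of the 8 small heat shock protein genes 5 were lower and 3 higher (median −0.05, and 0.01 after quantile normalization). Both calls were lost whichever array was left out, when the limma adjusted p lay between 0.0851 and 0.353, with no filter (0.16 for both) and without the variance trend (0.0706 and 0.081).

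The mitochondrial chaperonin pair, which forms 1 folding chamber, read higher in the knockout at all 3 of its kept probe sets, none of them called. Hspd1 (Hsp60) was at 1577 and 1531 in wild type and 2101 and 1974 in the knockout (0.39, SE 0.068, limma adjusted p = 0.0591). Its partner Hspe1 (Hsp10) was at 1141 and 1139 against 1369 and 1488 (0.32, adjusted p = 0.081), with 0.36 at a dimmer probe set. The 11 chaperonin genes together had 5 lower and 6 higher (median 0.02, and −0.005 without knockout replicate 2), with 0 called. After quantile normalization 2 of the 11 were lower (median 0.07).

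Genes of the endoplasmic reticulum stress response, to which Hspa5 belongs as a target, had 12 of 17 lower (median −0.03, against −0.05 over all genes) and 0 called. After quantile normalization 9 of 17 were lower, and with 1 array left out the median lay between −0.07 and −0.01. The pair with the smallest p was Ddit3 (CHOP), at 2209 and 2168 against 1919 and 1950 (−0.18, adjusted p = 0.157), and the lectin chaperone Calr, at 12757 and 12254 against 11125 and 11422 (−0.15, adjusted p = 0.158).

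**Figure D4:**
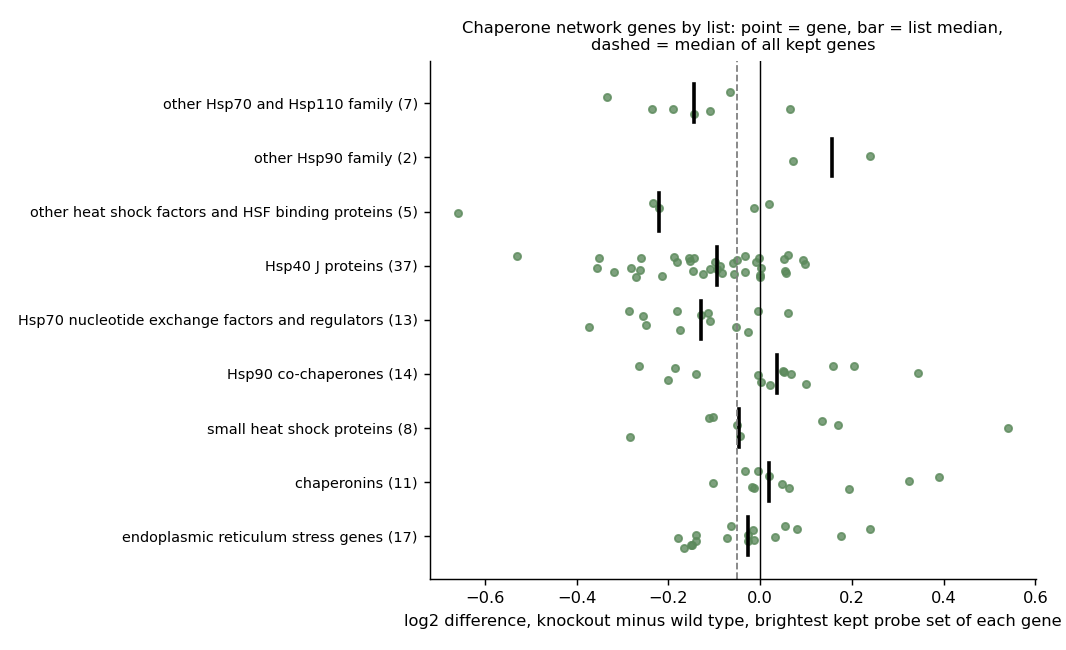
Log2 difference, knockout minus wild type, of each gene of the 9 network lists at its brightest kept probe set (points), with the list medians (bars) and the median of all kept genes, −0.05 (dashed); the number of genes stands in brackets. The points farthest out are Hsbp1l1 at −0.66 and Hspb11 at 0.54.

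Markers of the cell types of the testis were counted in the same way, each gene at its brightest kept probe set. Over all 12241 genes 60.7% were lower, the median was −0.05 and 1.74% were called at that probe set. Peritubular myoid (6 genes, median 0.04), endothelial (2 genes, −0.06) and fibroblast markers (5 genes, −0.14) had 0 called. Of the spermatid markers 15 of 17 were lower (median −0.17), with a summed signal of 527700 to 540660 in wild type and 489290 to 498990 in the knockout, and of the pachytene spermatocyte markers 13 of 18 (median −0.07), at 244300 to 248550 against 232730 to 235980. After quantile normalization 13 of 17 spermatid markers (median −0.11) but only 9 of 18 pachytene markers (median −0.01) were lower. With 1 array left out the pachytene median lay between −0.11 and −0.04. Sertoli cell markers were higher in 7 of 12 (median 0.05), at 71445 to 73631 against 88644 to 90055, with Amh, Fshr and 3 others not kept. That median turned to −0.03 without knockout replicate 2 and was 0.13 after quantile normalization, with 2 of 12 lower. Most of the difference in the sum lay in Clu, Ctsl, Ptgds and Aard. Leydig cell markers were higher in 5 of 7 (median 0.19, and 0.29 after quantile normalization), at 21219 to 21671 against 25077 to 25789, with Insl3, Lhcgr and Hsd3b6 not kept, and macrophage markers in 10 of 10 (median 0.17), at 3220 to 3270 against 3757 to 3817. Spermatogonial markers were higher in 5 of 8 (median 0.08), with Gfra1, Nanos3 and Sall4 not kept. The gene of smallest p in that list, Id4, was lower (−0.41, limma adjusted p = 0.0657). Called by limma were Cylc1, Tssk3, Calr3 and Pttg1, all lower, and Ptgds and Cyp17a1, both higher; they are named here after their values were seen. Pttg1 was called at −0.64 only at its second brightest probe set, while its brightest differed by −0.27 (adjusted p = 0.114) and its dimmest by −0.002. After quantile normalization the calls of Calr3, Pttg1 and Tssk3 were lost (limma adjusted p of 0.0569, 0.0564 and 0.0707). All 6 were lost with no filter (0.16 to 0.161), without the variance trend (0.0758 to 0.1) and with 1 array left out (0.0851 to 0.353). The ratio of 3′ to 5′ actin signal, a sign of RNA integrity, was 2.09 and 1.999 in wild type and 2.42 and 2.18 in the knockout, and that of Gapdh 1.04 and 0.990 against 0.927 and 0.938. The part of cell makeup or of RNA integrity in the lower Hspa2 and Hspa1l and the higher Hspa8 readings was not tested. Hspa2 and Hspa1l differed by −0.37 and −0.27 without wild type replicate 2, the array high in adipocyte markers, and Hspa8 by 0.31.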

How the data were processed

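The deposited table holds 1 linear intensity per probe set and array for 45101 probe sets, 64 of them controls. MAS5 is named per the submitters' processing notes, with no version or scaling target. Pairs of arrays hold exactly the same value at 228 to 2385 probe sets, so what was done between arrays is not settled. Intensities were taken to log2 (offset 0) with no further normalization. Probe sets with a mean signal at or above the median (45.8) were kept, 22519 in all. Names came from the platform annotation, updated by gene ID to RefSeq (GRCm38.p6): 34945 probe sets had 1 symbol, 932 several and 9160 none. A synonym that is another gene's symbol was not used.

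The test was limma's (version 3.58.1, under R 4.3.3; eBayes with a variance trend, 2 residual and 3.17 prior degrees of freedom), two-sided, over the whole table with Benjamini-Hochberg adjustment. The number of arrays limits the precision. The procedure was tested on simulated data. All simulated differences were larger than any member difference, and no shift common to a whole array was simulated. That test therefore does not show how well differences of the members' size are found. Members, lists and tests were chosen with earlier results of these data known. Named were all members, Taf7l, every called gene and up to 2 genes of smallest p at the brightest probe set in each network list. Of a marker list, the gene of smallest p was named where a result turned on it. Dnajb1 was added for its dimmer probe set. Further probe sets of a named gene are given where they disagree. Alternatives covered scaling, offset, filter, prior, replicate block, choice of probe sets, threshold and each array left out.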

Additional observations from a re-analysis of the deposited data

How the results depend on the processing

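The number of probe sets called over the whole table, 312 (32.1% of them higher), was 148 after quantile normalization (61.5% higher), 646 with median centring (22.8% higher), 2375 with the 75th percentile filter (18.2% higher), 0 by limma with no filter (6192 at an unadjusted p under 0.05), 36 when the variance trend was dropped (69.4% higher), 179 with single-transcript probe sets, 806 with 1 probe set per gene, 2628 at an adjusted p under 0.10, and 0 to 0 by limma with 1 array left out (3084 to 5500 at an unadjusted p under 0.05). Member calls, 0 of 21, became 1 with median centring (Hspa2), 3 with the 75th percentile filter and 3 at an adjusted p under 0.10 (both times Hspa2, Hspa1l and 1 of Hspa8), 2 with 1 probe set per gene (Hspa2 and Hspa1l), and 0 to 0 with 1 array left out. The median member difference, −0.071, was −0.0166 after quantile normalization, −0.147 with single-transcript probe sets, −0.0187 with 1 probe set per gene, and −0.08 to −0.06 with 1 array left out. The difference between class medians, −0.16, was −0.20 with the 75th percentile filter and −0.13 with single-transcript probe sets. It was −0.35 with 1 probe set per gene, and −0.25 to −0.14 with 1 array left out. With the replicate number as a block 541 probe sets and 0 members were called. The numbers were not taken to pair the samples: deviations of same-numbered arrays correlated at 0.0317. Wild type replicate 2 and knockout replicate 2 nevertheless shared exact values at 5.30% of mouse probe sets, more than any other pair. Whether the samples were paired is therefore not settled.

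Among single probe sets, 14 member values changed sign under an alternative. After quantile normalization these were Hspa4l (0.0031), Hspa5 (0.0133) and Hsp90aa1 (0.0197). The others changed sign with 1 array left out, where the brightest Hspa5 reading ranged from −0.0041 to 0.0819, that of Hspa4l from −0.0537 to 0.0157, Hsp90aa1 from −0.0419 to 0.0052 and from −0.1104 to 0.0472, Hspa1a from −0.0047 to 0.1503 and Hspa1b from −0.1152 to 0.0487 and from −0.2464 to 0.2423. Outside the members Hsp90b1 ranged from −0.0207 to 0.1655 and Col1a1 from −0.6239 to 0.0689. The cause was not tested. A fit with 1 array in a genotype assumes that this array varies as the remaining pair does. Dim readings, Hspa1a, Hspa1b and Hsf2 above all, limit what can be said of those genes.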
